A study of Mus musculus with 13 samples.

Results

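The comparison described here is day 3 against day 1 of co-culture between UG26-1B6 mouse stromal cells and blood progenitors. It was made from 5 of the 13 arrays of the study, chosen by their titles: 2 arrays taken after 72 h of co-culture and 3 arrays taken after 24 h. UG26-1B6 is a single stromal clone grown from the urogenital ridge of a midgestation mouse embryo. The added cells were Lin- Sca-1+ c-Kit+ cells (LSK cells), a cell fraction enriched for blood stem cells, and they were present on both sides of the comparison. Per the labels' protocols the stromal layer was grown to confluence on gelatin and irradiated at 30 Gy before the LSK cells were seeded, so both groups carry that dose. The other 8 arrays, used here for their values and for the estimate of each gene's spread, are 3 of stroma on day 0, before co-culture, 2 of stroma at 24 h after a change of medium and 3 of co-culture at 48 h. The labels do not say whether those control cells were irradiated or how stromal cells were parted from LSK cells before RNA was extracted. The titles call the replicates biological and the design text calls them technical, so each p-value measures only the spread between these arrays.

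Stromal cells of this kind support blood stem cells through secreted factors, adhesion molecules and matrix. LSK cells in culture divide and many of them mature along the myeloid path, in which granule proteins such as myeloperoxidase appear early and inflammatory S100 proteins later. Wnt proteins are secreted signals that bind Frizzled and Ror receptors, and in the branch that runs through beta-catenin they switch on targets such as Axin2.

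All values are log2 expression values as deposited, with 2.28 the lowest value in the table, and a gene is represented by 1 probe set (probes that read 1 transcript). Differences are day 3 minus day 1 on the log2 scale, with their standard error from a limma fit over all 13 arrays, and the threshold is a Benjamini-Hochberg adjusted p under 0.05 over the 12205 genes tested. Of the 137 genes named, 49 have another probe set, and for 36 of the 49 at least 1 other gave a difference of opposite sign or under 50% of the size, so a gene's value is that of the probe set used. Stromal markers were high on both days: the mean log2 value over the 15 measured stromal markers lay between 9.65 and 10.5 on the day 1 arrays and was 9.93 and 9.65 on the day 3 arrays. Genes of blood cells were also read. The summed linear level of 31 measured macrophage and pan-myeloid genes was 2336 to 3724 on day 0, 2348 to 2579 in medium, 3624 to 7899 on day 1 and 14530 to 36610 on day 3. The pan-leukocyte gene Ptprc was at 2.28 on all day 0 and medium arrays. The stem cell factor receptor Kit, which defines LSK cells, lay between 2.28 and 2.38 on all 13 arrays and was not tested. In such mixed RNA, fewer cells of a type and less RNA per cell cannot be told apart.

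Day 2 replicate 1 and day 3 replicate 2 stood apart in the array controls. The gap between the 3' and 5' Gapdh control probe sets, which widens when RNA is broken or short, was 2.39 to 3.5 on day 1, 2.43 on day 3 replicate 1, 5.79 on day 3 replicate 2 and 8.96 on day 2 replicate 1. The mean of 8 poly-A spike-in probe sets, bacterial transcripts added to the sample, was 10.46 to 12.45 on day 1, 11.95 and 14.12 on the day 3 arrays, 14.44 on day 2 replicate 1 and 4.63 and 4.88 in medium. Day 3 replicate 1 lay within the day 1 range for both controls. The day 1 arrays correlated with one another at 0.986 to 0.99 over the 12205 genes past the filter and the day 3 arrays with each other at 0.935. The part of RNA quality and of input in the results was not tested. The fit is also given without day 2 replicate 1, a setting chosen with earlier results of these data known. That array correlated with no other above 0.785 and read far above the other day 2 arrays for blood-cell genes such as Mpo (12.36 against 8.54 and 8.96). Leaving it out takes the highest value from the spread of such genes, so their adjusted p without it is given as a description and not as separate evidence.

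Between day 1 and day 3 a single gene passed the threshold, Wnt2, which fell. That is 1 of 12205 genes (0.00819%), with 0 genes higher. At an unadjusted p under 0.05 there were 357 genes (2.93%), 219 higher and 138 lower (1.79% and 1.13%), and the next smallest adjusted p in the limma fit was 0.11. A total of 529 genes had a mean at least 2-fold higher on day 3 (4.33%) and 461 at least 2-fold lower (3.78%). Without day 2 replicate 1, an array outside the comparison, 27 genes passed (0.221%), of which 24 were higher (0.197%) and 3 lower (0.0246%) on day 3. Leaving out either day 3 array leaves 1 array in that group, with no spread of its own, so no count is given for such fits.

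**Figure D1:**
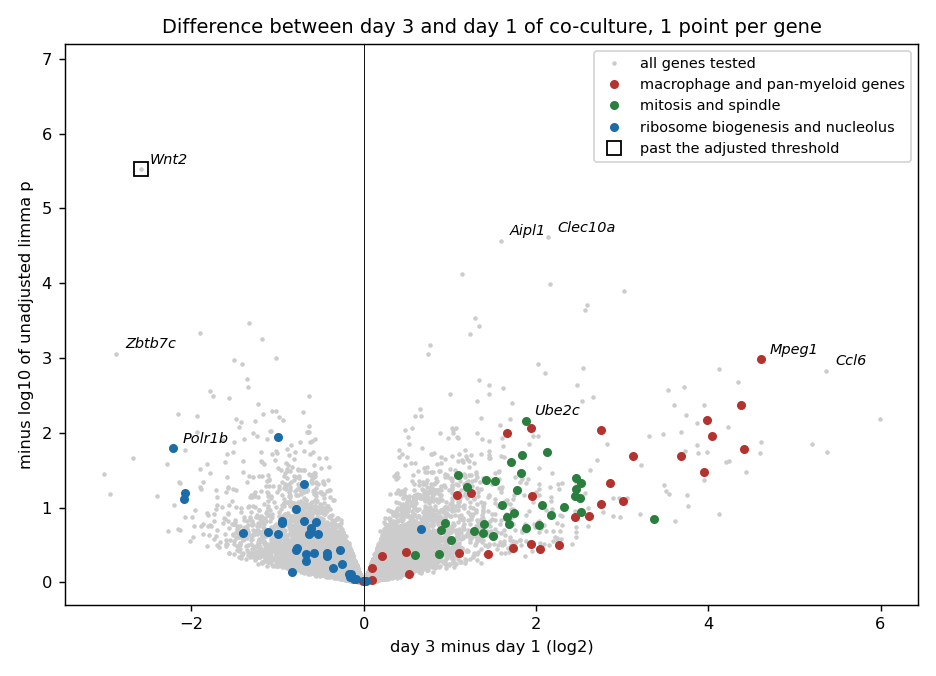
Each point is 1 of the 12205 genes, with the day 3 minus day 1 difference (log2) on the horizontal axis and minus log10 of the unadjusted limma p on the vertical axis. Wnt2 (boxed, difference -2.59) stands above all others; macrophage and mitosis genes lie on the right and most ribosome biogenesis genes on the left, below the adjusted threshold.

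Wnt2 encodes a secreted Wnt ligand. Its values were 5.19, 5.13 and 5.53 on the day 1 arrays and 2.71 and 2.69 on the day 3 arrays. The groups did not overlap, and every day 3 value lay within the range of the arrays without LSK cells, which read 2.67, 2.72 and 2.69 on day 0 and 2.76 and 2.72 in medium. On day 2 the arrays read 2.71, 2.77 and 3.57, so Wnt2 was high on the 3 day 1 arrays of the 13 arrays, with 1 day 2 array in between. The difference was -2.59 ± 0.26 (adjusted p = 0.0363, limma), and because the day 3 values are near the lowest that this probe set gave, its size may be a lower bound. The adjusted p was 0.00323 without day 2 replicate 1. Stromal markers summed to 32910 to 48460 on the day 1 arrays and to 37640 and 41950 on the day 3 arrays, which overlap. The Wnt2 adjusted p was under 0.05 in 7 of 19 alternative settings, some of which held only 1 day 3 array. The difference stayed between -2.66 and -2.45 in all of them. The call was lost when any day 1 array or day 3 replicate 2 was left out (adjusted p of 0.112, 0.194, 0.26 and 0.0765), and under quantile normalization (0.166), median centring (0.373) and a fit of the 5 compared arrays alone (0.141).

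The 300 bases around the Wnt2 start site, most of them upstream, are shown because Wnt2 carries the comparison. RefSeq places it on GRCm38.p6 at chr6:18030396-18030695, minus strand. Capitals mark GGGCGG, the GC box, found on both strands.

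Wnt2: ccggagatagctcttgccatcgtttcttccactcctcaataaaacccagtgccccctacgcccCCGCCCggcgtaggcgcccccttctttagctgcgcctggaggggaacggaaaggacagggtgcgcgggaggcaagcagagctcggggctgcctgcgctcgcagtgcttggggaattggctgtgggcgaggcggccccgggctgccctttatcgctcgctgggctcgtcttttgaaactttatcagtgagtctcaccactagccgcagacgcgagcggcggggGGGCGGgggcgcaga

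The motif GGGCGG occurred at 2 places in it and in 35.7% of all 32851 RefSeq stretches of this length. GAGGAA, searched in the granule genes described further on, was not in this window.

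None of the other Wnt genes passed. The counts by list that follow take every listed gene on the array, whether or not it passed the filter on low values, because a gene kept only for its day 3 values had to differ. Of 43 list genes on the array, 7 had both day 3 arrays below all day 1 arrays by more than 0.1 and 0 had both above (16.3% and 0% against 5.29% and 3.63% of all 18193 genes on the array). Of the 12205 genes tested, 7.88% were below and 5.41% above, the closer share for lists whose genes nearly all passed the filter. Axin2, the feedback inhibitor and common beta-catenin target, read 7.39, 6.62 and 6.58 on day 1 and 5.56 and 5.17 on day 3 (-1.5 ± 0.49). Of the receptors, of which these were picked after their values were seen, Fzd8 differed by -2.4 ± 1.18 (its other probe set by -0.41) and Ror1 by -1.7 ± 0.91. Ror2 differed by -1.11 ± 1.71, but by 0.26 on its other probe set and by 0.33 with the spike-in level as a covariate. The ligand Wnt5a (-0.7 ± 1.34) and the secreted antagonist Sfrp1 (-1.42 ± 1.9) did not pass. Sfrp1 read 11.3 on day 3 replicate 1 and 6.35 on day 3 replicate 2, so its mean rests on 1 array.

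**Figure D2:**
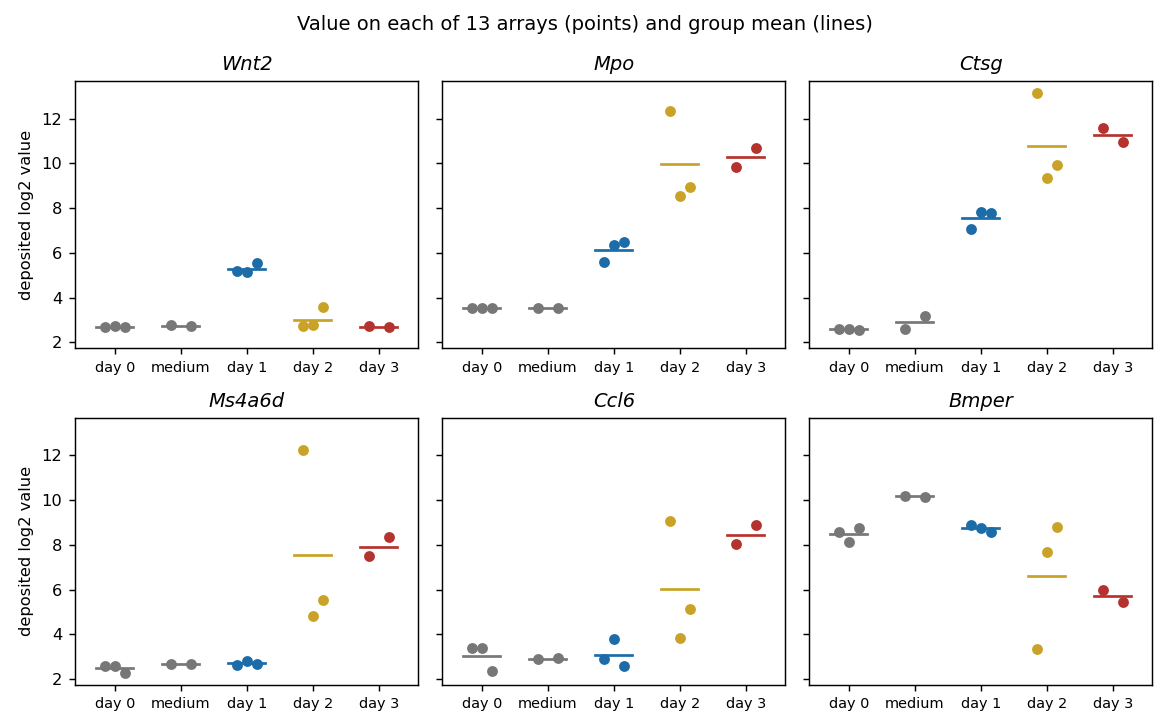
Deposited log2 values on the 13 arrays for 6 genes, with each point an array and each line a group mean. Wnt2 lies between 5.13 and 5.53 on day 1 and at 2.77 or below elsewhere except on 1 day 2 array (3.57); Mpo, Ctsg, Ms4a6d and Ccl6 are higher on both day 3 arrays than on any day 1 array, and Bmper is lower.

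Of the 18 neutrophil list genes on the array, 9 had both day 3 arrays above all day 1 arrays by more than 0.1 (50% against 3.63% of all genes) and 0 had both below. Among the 9 were Mpo, Ctsg and Prtn3, which encode the primary granule proteins myeloperoxidase, cathepsin G and proteinase 3. Elane, the elastase of the same granules, was not among them, with 2.58 and 2.28 on day 3 and 2.28 on all day 1 arrays. Mpo read 5.61, 6.33 and 6.5 on day 1 and 9.86 and 10.7 on day 3, a difference of 4.13 ± 0.93. The adjusted p was 0.718 in the limma fit over 13 arrays and 0.00126 without day 2 replicate 1, which read 12.36. Ctsg read 7.06, 7.84 and 7.77 on day 1 and 11.58 and 10.97 on day 3 (3.72 ± 0.91, adjusted p of 0.895 and 0.00273). Prtn3 read 5.99, 5.83 and 5.99 on day 1 and 10.37 and 8.87 on day 3 (3.68 ± 1.14). For Mpo, Ctsg and Prtn3 the lowest day 3 value lay above the highest day 1 value by more than the spread within either group.

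The start sites of these granule genes are shown because they read higher together and because PU.1, a factor of myeloid cells, is known to bind sites with the core GAGGAA. Each stretch again holds 300 bases around the RefSeq start on GRCm38.p6, at chr11:87793534-87793833 (plus strand) for Mpo, chr14:56102525-56102824 (minus strand) for Ctsg and chr10:79879417-79879716 (plus strand) for Prtn3. Capitals mark GAGGAA, searched on both strands.

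Mpo: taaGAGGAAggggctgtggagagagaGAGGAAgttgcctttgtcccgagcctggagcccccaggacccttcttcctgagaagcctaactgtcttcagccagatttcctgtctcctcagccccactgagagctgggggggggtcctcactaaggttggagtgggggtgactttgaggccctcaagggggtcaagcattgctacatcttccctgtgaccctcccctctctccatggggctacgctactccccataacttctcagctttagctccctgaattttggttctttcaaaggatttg

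Ctsg: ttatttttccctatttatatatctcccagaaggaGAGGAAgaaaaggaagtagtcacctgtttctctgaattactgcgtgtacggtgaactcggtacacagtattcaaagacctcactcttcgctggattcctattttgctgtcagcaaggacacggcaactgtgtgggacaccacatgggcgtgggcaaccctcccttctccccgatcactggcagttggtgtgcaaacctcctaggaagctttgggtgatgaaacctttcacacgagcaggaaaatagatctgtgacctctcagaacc

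Prtn3: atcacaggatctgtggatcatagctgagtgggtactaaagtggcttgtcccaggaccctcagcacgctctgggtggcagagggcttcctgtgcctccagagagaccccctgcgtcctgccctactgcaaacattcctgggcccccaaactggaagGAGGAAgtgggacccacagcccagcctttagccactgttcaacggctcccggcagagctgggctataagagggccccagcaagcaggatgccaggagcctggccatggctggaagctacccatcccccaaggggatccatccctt

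Mpo held 2 matches and Ctsg and Prtn3 held 1 each. The letters occurred in 28.3% of all 32851 stretches. Other blood-cell genes named here were searched as well. Ms4a3, Fcgr3, Ctss, Cd53, Ptprc, Pf4, Plek and S100a8 held at least 1 match, and Chil3, Mpeg1, Ccl6 and Myb held 0. The stretches shown therefore do not stand for all genes that read higher on day 3. A match is a string of letters and not a measured site, and these data hold no binding measurement.

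The day 3 arrays differed in how many neutrophil list genes were high. Taken by itself, day 3 replicate 1 was above all day 1 arrays for 13 of the 18 and replicate 2 for 9 (13% and 19.5% of all genes). The 9 of replicate 2 were the same 9 that were above on both arrays. S100a8, S100a9, Chil3 and Ms4a3 were also among these 9. S100a8, an inflammatory calcium-binding protein of neutrophils and monocytes, read 2.64, 2.77 and 2.52 on day 1 and 6.59 and 6.94 on day 3. It read 12.83 on day 2 replicate 1, and its adjusted p was 8.29e-05 without that array. Its partner S100a9 read 3.13 and 5.19 on day 3. Chil3, a chitinase-like secreted protein, read 3.97, 8.92 and 7.58 on day 1 and 9.97 and 12.89 on day 3 (4.61 ± 1.52). Ms4a3, a granulocyte and monocyte precursor gene, differed by 3.22 ± 1.23 and read 6.45 and 4.76 on day 3.

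Of 37 macrophage and pan-myeloid genes on the array, 19 had both day 3 arrays above all day 1 arrays (51.4% against 3.63% of all genes) and 0 had both below. Taken by itself, day 3 replicate 1 was above for 26 and replicate 2 for 24 (13% and 19.5% of all genes). These counts include the 19. The median difference of the 37 was 1.94. Ptprc, the CD45 phosphatase of all leukocytes, read 2.84, 4.13 and 2.69 on day 1 and 5.34 and 9.18 on day 3 (4.04 ± 1.29). Mpeg1, the pore-forming protein of phagocytes, read 2.28, 6.52 and 4.93 on day 1 and 9.29 and 9.08 on day 3 (4.61 ± 0.99). Day 1 replicate 1 was the lowest of its group for Mpeg1, at the lowest value of the table. Fcgr3, a low-affinity IgG receptor, differed by 4.38 ± 1.17 and passed without day 2 replicate 1 (adjusted p = 0.00369, limma). Cd53 (4.42 ± 1.52, but 1.14 on its other probe set), Tyrobp (3.68 ± 1.32) and Cd68 (1.94 ± 0.59) did not pass in either fit.

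Of the 27 genes that passed without day 2 replicate 1 (0.221% of all genes tested), 5 were on the neutrophil list and 2 on the macrophage list. These lists hold 15 and 31 measured genes, and the limit given above for leaving that array out applies to both counts. The genes named next were picked from the 27 after their values were seen. Ccl6, a chemokine of macrophages and neutrophils, read 2.88, 3.79 and 2.59 on day 1 and 8.03 and 8.87 on day 3 (5.37 ± 1.22, adjusted p = 0.00599 without that array, limma). Ms4a6d, a membrane protein of macrophages, read 2.64, 2.81 and 2.65 on day 1 and 7.48 and 8.33 on day 3 (5.21 ± 1.74). Its other probe set gave 0.58, and the one used carries a suffix that marks possible matches to more than 1 transcript. Suffixes of this kind also mark the probe sets used for S100a8, Chdh, Ctsz and Myb, among others. Clec4a2 (3.99 ± 1.4), a C-type lectin, and Trem3 (3.53 ± 0.88), an activating receptor, read 3.09 or below on day 1 and 5.47 or above on both day 3 arrays, but the other Clec4a2 probe set gave -0.01. Nrros (2.63 ± 1.04), Slfn2 (2.66 ± 0.69), Ifitm1 (2.78 ± 1.6), Nckap1l (2.12 ± 1.56), which builds the actin-regulating WAVE complex of blood cells, and the exchange factor Vav1 (1.66 ± 0.52) passed as well. So did the immunoproteasome subunit Psmb8 (2.46 ± 1.07), Selenbp1 (2.22 ± 1.81) and Mtfp1 (1.17 ± 0.48). The other probe sets of Psmb8 and Selenbp1 gave 0.57 and 0.18.

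The genes with the smallest unadjusted p for a higher day 3 value, listed whether or not they belong to blood cells, were Clec10a, Aipl1, Inpp5d, Otulinl, Chdh, Lpxn, Adam8 and Itgbl1. Clec10a, a galactose-binding lectin of macrophages and dendritic cells, read 3.84 and 4.99 on day 3 and 2.28 on every other array. The difference was 2.14 ± 0.28 (adjusted p = 0.11, limma). It passed the filter on low values only through the day 3 arrays, so it had to differ. Inpp5d, the lipid phosphatase SHIP1 of blood cells, read 3.27 and 3.63 on day 3 (1.14 ± 0.17). Outside day 3, Inpp5d was above the filter value (2.38) only on day 2 replicate 1 (2.51), and Itgbl1 only on day 2 replicate 3 (2.57). Both were thus also kept through day 3 values, and the adjusted p of Clec10a, Inpp5d and Itgbl1 is a description only. Aipl1, a chaperone best known from photoreceptors, read 6.29 and 6.26 on day 3 and between 4.35 and 5.03 on every other array (1.59 ± 0.21). Clec10a, Inpp5d, Aipl1, Otulinl (2.16 ± 0.34), the mitochondrial choline dehydrogenase Chdh (3.02 ± 0.49) and the leukocyte metalloprotease Adam8 (2.57 ± 0.45) passed without day 2 replicate 1. Lpxn (2.59 ± 0.44) and Itgbl1 (1.29 ± 0.23) did not, with adjusted p of 0.0858 and 0.0786 (limma).

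Platelet-lineage and progenitor genes were higher for some members only. Of 16 megakaryocyte and platelet genes on the array, 4 had both day 3 arrays above all day 1 arrays (25% against 3.63% of all genes) and 0 had both below. Pf4, platelet factor 4, read 6.17, 4.26 and 4.14 on day 1 and 10.15 and 10.32 on day 3 (5.38 ± 1.88). Its day 2 arrays read 12.34, 3.74 and 8.75, and this spread left the adjusted p at 1 (0.21 without day 2 replicate 1, limma). Plek, pleckstrin of platelets and leukocytes, differed by 3.98 ± 1.15. Among 26 stem and progenitor genes, 5 had both day 3 arrays above and 0 below (19.2% and 0% against 3.63% and 5.29% of all genes). Myb, a transcription factor of dividing progenitors, read 2.54, 2.88 and 2.54 on day 1 and 5.65 and 8.87 on day 3 (4.6 ± 1.62, and 2.01 on its other probe set), and Lyl1 differed by 3.51 ± 1.65. Cd34 read 2.44 and 3.96 on day 3 against 2.44, 2.44 and 2.36 on day 1 (0.79 ± 1.38).

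Markers of other lineages had 0 to 2 genes apart per list. Of 26 lymphoid genes on the array, 5 passed the filter on low values and 0 were apart in either direction. Il7r, the interleukin-7 receptor, read 2.28 on day 3 replicate 1 and 4.84 on replicate 2, and the pre-B gene Vpreb1 differed by -0.29 ± 0.46. Of 11 dendritic cell genes 0 were apart, with Batf3 at -0.17 ± 0.23 and Bst2 at -0.29 ± 1.29. Among 15 erythroid genes 2 had both day 3 arrays above (13.3% against 3.63% of all genes). Nfe2, an erythroid and megakaryocyte factor, differed by 2.2 ± 1.91 and the transferrin receptor Tfrc by -0.53 ± 0.77. Of 10 mast cell genes 1 was below (10% against 5.29%), of 16 endothelial genes 1 was below (6.25%) and of 15 epithelial genes 1 was above (6.67%), with Mcpt8 (-1.22 ± 1.36), Gata2 (-0.35 ± 0.33), Kdr (-2.02 ± 1.75), Esam (1 ± 0.53), Krt19 (1.18 ± 0.49) and Grhl2 (0.54 ± 0.42) as the members with the smallest p.

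**Figure D3:**
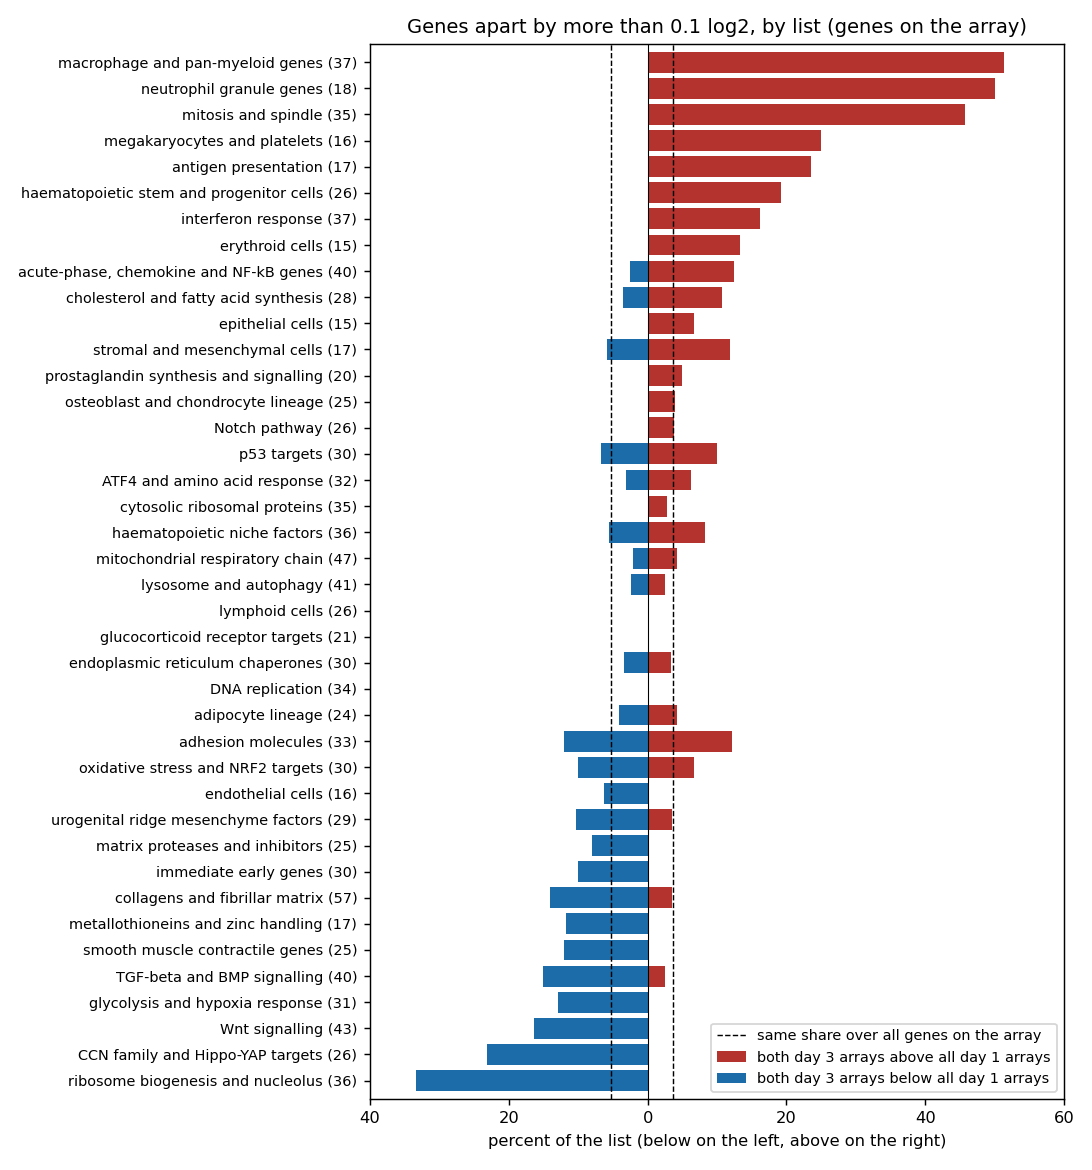
For each gene list of at least 15 genes on the array (number in brackets), the bars give the percent of genes for which both day 3 arrays lay above (right) or below (left) all day 1 arrays by more than 0.1 log2. Dashed lines mark the same share over all 18193 genes, 3.63% above and 5.29% below; myeloid, neutrophil and mitosis lists extend furthest right and ribosome biogenesis furthest left.

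The lists for mitosis and for DNA replication gave different counts. Of 35 mitosis and spindle genes on the array, 16 had both day 3 arrays above all day 1 arrays (45.7% against 3.63% of all genes). None had both below, and 31 had a mean at least 2-fold higher (88.6% against 2.92% of all genes on the array). None passed the threshold in the limma fit, alone or without day 2 replicate 1. The mean over the list was 6.56, 6.35 and 5.16 on day 1 and 7 and 8.59 on day 3, while day 0 and medium arrays, which hold no added LSK cells, lay between 7.33 and 8.28. Ube2c, which loads ubiquitin for the anaphase-promoting complex, read 5.99, 6.48 and 4.94 on day 1 and 7.51 and 7.85 on day 3 (1.88 ± 0.55). The centromeric histone Cenpa differed by 2.13 ± 0.75, the mitotic kinases Plk1 by 1.71 ± 0.64 and Aurka by 1.84 ± 0.66, and the proliferation marker Mki67 by 3.37 ± 2.11. DNA replication genes did not share this order: 0 of 34 were apart in either direction. The list mean was 7.93 on day 3 replicate 1 and 9.23 on replicate 2, against 8.66, 8.39 and 7.76 on day 1. Replicate 2 alone was above all day 1 arrays for 24 of the 34 and replicate 1 alone for 1 (19.5% and 13% of all genes). Pcna, the sliding clamp, differed by 0.27 ± 0.23, Cdc45 by 0.35 ± 0.23 and Chaf1b by -0.67 ± 0.4. For mitosis genes the same counts were 32 of 35 for replicate 2 and 18 for replicate 1, against 19.5% and 13% of all genes. Day 3 replicate 2 thus carries the larger share in both lists, as it does to a lesser degree over all genes. It is also the array with the wide Gapdh gap, and the part of RNA quality was not tested.

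None of the ribosome biogenesis genes passed. Of 36 list genes on the array, 12 had both day 3 arrays below all day 1 arrays (33.3% against 5.29% of all genes) and 0 had both above. The median difference was -0.63 against 0 over all genes on the array. Here replicate 1 moved more: it was below all day 1 arrays for 27 of the 36 and replicate 2 for 15 (15.6% and 19.3% of all genes). Polr1b, a core subunit of RNA polymerase I, read 6.51, 5.96 and 6.28 on day 1 and 3.92 and 4.16 on day 3 (-2.21 ± 0.76). Srm, spermidine synthase, read 10.97, 11.11 and 11.35 on day 1 and 9.91 and 10.4 on day 3 (-0.99 ± 0.32). Rrp9, which binds the U3 small nucleolar RNA, differed by -2.07 ± 0.98. Npm1, the nucleolar protein nucleophosmin, went the other way with 0.67 ± 0.48. Over the same arrays the 35 cytosolic ribosomal proteins had 1 gene apart above and 0 below, with Rps27 at 0.83 ± 0.36 and Rpl12 at -0.58 ± 0.43.

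**Figure D4:**
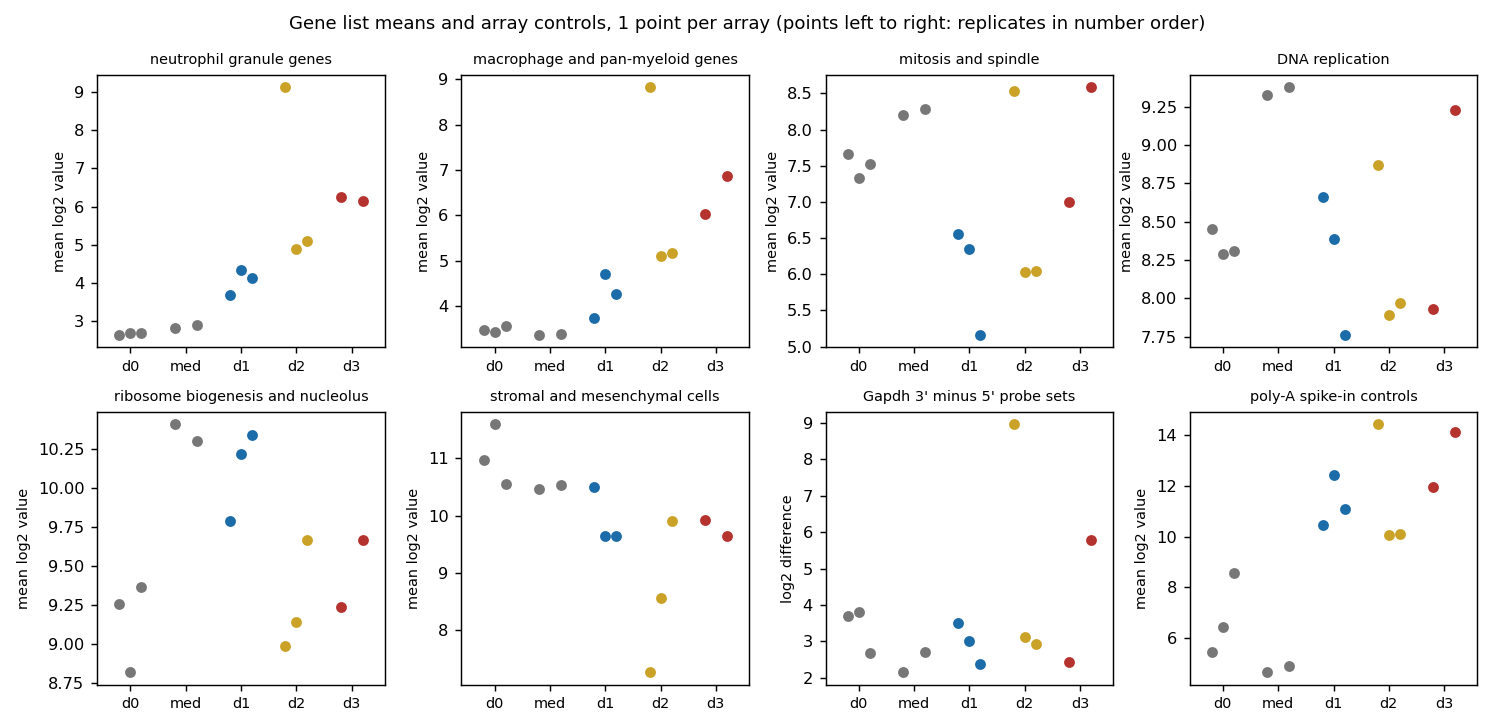
Mean log2 value of 6 gene lists, the Gapdh 3' minus 5' gap and the poly-A spike-in mean on each array, by group (d0, med for medium, d1, d2, d3). Myeloid lists are higher on both day 3 arrays than on day 1, stromal markers overlap, and day 2 replicate 1 and day 3 replicate 2 have the widest Gapdh gap.

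Of 57 collagen and matrix genes on the array, 8 had both day 3 arrays below and 2 above (14% and 3.51% against 5.29% and 3.63% of all genes). Col1a1, the main chain of type I collagen, read 9.64, 8.55 and 8.7 on day 1 and 7.29 and 7.38 on day 3 (-1.63 ± 0.53), though its other probe set gave -0.08. Col4a2, a basement membrane chain, differed by -1.11 ± 0.45. Ltbp2, a microfibril protein related to the TGF-beta binding proteins, read 9.14, 9.44 and 9.03 on day 1 and 7.15 and 7.51 on day 3 (-1.87 ± 0.81) and passed without day 2 replicate 1 (adjusted p = 0.0153, limma). Bmper, a secreted regulator of BMP signals, passed as well in that fit (0.0131), with 8.89, 8.74 and 8.57 on day 1 and 6 and 5.43 on day 3 (-3.02 ± 1.24). Vim, the mesenchymal filament protein, read higher on both day 3 arrays (0.72 ± 0.46).

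Of 36 niche factors on the array, through which stroma acts on blood stem cells, 3 had both day 3 arrays above and 2 below (8.33% and 5.56% against 3.63% and 5.29% of all genes). Cxcl12, the chemokine that holds stem cells in the niche, read 10.77, 9.94 and 9.67 on day 1 and 10.11 and 9.54 on day 3. Its difference was -0.3 ± 0.72, and its 2 other probe sets gave -1.87 and 0. Kitl, the stem cell factor, differed by 0.74 ± 1.77 and the adhesion molecule Vcam1 by 0.07 ± 1.02. Jag1, a Notch ligand, read 6.99, 6.14 and 6 on day 1 and 7.83 and 7.99 on day 3 (1.53 ± 0.81), while its other probe set gave -0.15. Osm, a cytokine made by blood cells, read 2.41 on the day 1 arrays and 3.39 and 4.35 on day 3 (1.46 ± 0.48). Neither passed.

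The 8 genes with the smallest unadjusted p for a lower day 3 value were Wnt2, Ncdn, Tiam1, Pus7, Zbtb7c, Zfp862-ps, Tmem200a and Ece2, and after Wnt2 none passed in either fit. Ncdn, the neuronal protein neurochondrin, read 7.43, 7.57 and 6.95 on day 1 and 5.96 and 6.02 on day 3 (-1.33 ± 0.24), and its other probe set gave -1.31. Tiam1, a Rac exchange factor, differed by -1.9 ± 0.36 and the pseudouridine synthase Pus7 by -1.18 ± 0.23. The zinc finger gene Zbtb7c differed by -2.87 ± 0.6, while its other probe set gave -0.01. Ece2, an endothelin-converting enzyme, differed by -1.41 ± 0.31 (0 on its other probe set), Tmem200a by -1.51 ± 0.33 and the pseudogene Zfp862-ps by -1.02 ± 0.22.

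Of 17 antigen presentation genes on the array 4 had both day 3 arrays above and 0 below (23.5% and 0% against 3.63% and 5.29% of all genes). Ctss, cathepsin S, read 5.03, 7.61 and 6.34 on day 1 and 9.89 and 11.48 on day 3 (4.35 ± 1.04), and the class I light chain B2m differed by 0.86 ± 0.4. Of 37 interferon response genes 6 were above and 0 below (16.2%), with Ifit3 at 0.39 ± 0.16 and Parp14 at 1.12 ± 0.48. Among 40 acute-phase and chemokine genes 5 were above and 1 below (12.5% and 2.5%), with Orm1 at 0.77 ± 0.15, Icam1 at 0.63 ± 0.25 and Ccl9, a chemokine of myeloid cells, at 4.44 ± 1.79 (0.03 on its other probe set).

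Stress and metabolic lists varied in how many genes were apart, against 3.63% above and 5.29% below over all genes (5.41% and 7.88% of the genes tested). Among 30 p53 targets 3 were above and 2 below (10% and 6.67%), with the cell death gene Bbc3 at -0.63 ± 0.19 and Ddb2 at 1.07 ± 0.47. The cell cycle inhibitor Cdkn1a differed by -0.55 ± 0.74, and by -1.39 on its other probe set. Of 21 glucocorticoid receptor targets 0 were apart, with Fkbp5 at -1.07 ± 1.08 (0.12 on its other probe set) and Hsd11b1 at 0.64 ± 0.56. The day 3 arrays went opposite ways there: replicate 1 alone was above all day 1 arrays for 8 and below for 1. Replicate 2 alone was above for 1 and below for 14. Over all genes, replicate 1 alone was above for 13% and below for 15.6%, and replicate 2 for 19.5% and 19.3%. Of 30 NRF2 genes 2 were above and 3 below (6.67% and 10%), of 31 glycolysis and hypoxia genes 0 and 4 (0% and 12.9%), and of 28 cholesterol and fatty acid genes 3 and 1 (10.7% and 3.57%). The ATF4 list had 2 above and 1 below of 32, the chaperone list 1 and 1 of 30, the respiratory chain 2 and 1 of 47, lysosome genes 1 and 1 of 41 and prostaglandin genes 1 and 0 of 20. Low joint counts can hide arrays that part. In the ATF4 list replicate 1 alone was above for 3 and below for 14, and replicate 2 for 14 and 4. These counts were 6 and 11, and 17 and 3, in the cholesterol and fatty acid list. For lysosome genes they were 16 and 3, and 8 and 13. The 2 smallest p of the NRF2 list were Cat (0.55 ± 0.21) and Keap1 (-0.78 ± 0.38), of the chaperone list Herpud1 (0.6 ± 0.23) and Sdf2l1 (-0.67 ± 0.44), and of the ATF4 list Mars1 (-0.62 ± 0.2) and Vldlr (0.94 ± 0.39). Hypoxia genes were led by Ndrg1 (0.62 ± 0.42) and Aldoc (0.25 ± 0.21), lipid synthesis by Fdft1 (0.76 ± 0.38) and Mvd (-0.34 ± 0.26), and the respiratory chain by Cox5b (0.24 ± 0.22) and Ndufa10 (-0.45 ± 0.38). The lysosomal protease Ctsz stood out in size with 3.87 ± 1.3, beside the lipase Lipa at 1 ± 0.39. In the prostaglandin list Alox5ap, which serves leukotriene synthesis, differed by 4.23 ± 1.27 and Ptgir by 1.39 ± 0.76. Among 17 metallothionein and zinc genes 2 were below (11.8%), with Mt4 at -0.6 ± 0.2 and Mt2 at -0.54 ± 0.31.

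Over all genes on the array more were below than above (5.29% and 3.63%, or 7.88% and 5.41% of the genes tested). The signalling lists of the stroma are read against that. Of 26 CCN family and Hippo-YAP genes 6 had both day 3 arrays below and 0 above (23.1%), while the CCN gene Ccn2 overlapped (-0.57 ± 0.78) and Mob1a (-0.29 ± 0.28) and Sav1 (0.8 ± 0.75) had the smallest p. Of 40 TGF-beta and BMP genes 6 were below and 1 above (15% and 2.5%), with Tgfbi at 2.98 ± 1.81 and Fstl3 at -0.71 ± 0.49. Of 30 immediate early genes 3 were below (10%) and of 25 smooth muscle genes 3 (12%), with 0 above in both. Srf, the transcription factor of both programmes, differed by -1.07 ± 0.53 (-0.13 on its other probe set), Nr4a3 by 0.53 ± 0.27 and Tagln by -1.18 ± 0.96. Hes1, a Notch target, differed by -0.83 ± 0.63. Among proteases and adhesion genes Plaur, the urokinase receptor, read lower (-1.26 ± 0.37), Adamts4 gave 0.83 ± 0.66 and Jam2 1.37 ± 0.44. The 2 other Jam2 probe sets gave 0.03 and 0.05. In the lineage lists Lpl (2.3 ± 1.01), Fabp5 (-0.83 ± 0.32), Sox9 (0.8 ± 0.68), Msx2 (-0.34 ± 0.35), Foxl2 (-0.3 ± 0.19) and Hoxa9 (0.49 ± 0.28) had the smallest p.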

How the data were processed

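RNA of UG26-1B6 stroma, alone or in co-culture with LSK cells, was measured on 13 mouse arrays. The deposited table holds log2 values made by the authors; the submitters' processing notes name RMA and GCRMA with no version or role, and the values were used as deposited. It lists 45101 probe sets, of which 34958 have 1 gene symbol in the platform annotation, 932 several and 9211 none. Probe sets above the pooled median (2.38) on at least 2 of 13 arrays were kept, and the single-symbol probe set with the highest mean over all arrays stood for each gene, giving 12205 genes.

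limma 3.58.1 in R 4.3.3 fitted 1 mean per group over all 13 arrays, with the day 3 minus day 1 contrast, eBayes and Benjamini-Hochberg adjustment over all genes. The fit was tested on simulated data. Named genes are those with the smallest p in each direction whose groups do not overlap (up to 8 when fewer than 15 passed), 2 per list by smallest p, and a fixed set of stromal and blood genes; the others (such as Cd53, Ccl6 and Ror2) were chosen after their values were seen, as members of a described list or as genes that passed without day 2 replicate 1. The comparison and the 42 gene lists were chosen with earlier results of these data known. The number of arrays (2 and 3) limits the precision. Promoter stretches are from RefSeq, GRCm38.p6, matched by symbol. Figures were drawn with matplotlib.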

Additional observations from a re-analysis of the deposited data

How the results depend on the processing

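The count of genes past the threshold, 1 over 13 arrays, depended on the setting. It was 11 with no filter, 3 with a trended and robust prior, 10 with array weights and 1 with the mean of a gene's probe sets. It was 0 with the stricter filter (169 genes at an unadjusted p under 0.05, limma), with quantile normalization (312), with arrays centred on the median (219), with only the 5 compared arrays (975), with only the 8 co-culture arrays (199), with the spike-in level as a covariate (358) and with every probe set tested on its own. Leaving out 1 of the 5 compared arrays, or day 2 replicate 1, gave 0 to 106 genes: 0 without each of the 3 day 1 arrays in turn (196 to 303 at an unadjusted p under 0.05, limma), 106 without day 3 replicate 1, 4 without day 3 replicate 2 and 27 without day 2 replicate 1. Without day 2 replicate 1 and day 3 replicate 2 it was 105. The cause was not tested, except that settings with fewer arrays have fewer degrees of freedom. Leaving out each day 1 array on top of day 2 replicate 1, an alternative chosen after seeing the data, gave 10 to 19 genes. Wnt2, Mpo and Ctsg passed in each. The median difference over all genes was -0.02, and 0.04 after the arrays were centred. With the replicate block 0 genes passed (268 at an unadjusted p under 0.05, limma). The replicate numbers are not known to pair the cultures: day 1 and day 3 deviations correlated at 0.119 for replicate 1 and 0.261 for replicate 2, with a mean of 0.003 over 23 same-numbered pairs and -0.001 over 44 others.

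Signs turned for genes that had not passed. With the spike-in covariate the differences became 0.33 for Ror2, 0.35 for Wnt5a, -0.41 for S100a9, -0.65 for Elane, -0.42 for Cd34, 0.36 for Cxcl12, 0.09 for Cdkn1a and 0.36 for Bst2. With the replicate block they became -0.05 for Elane and 0.14 for Bst2. Without day 3 replicate 2, with or without day 2 replicate 1, they became 1.06 for Sfrp1, -0.05 for Cdc45, 0.12 for Sdf2l1, -0.12 for Esam, 0.54 for Vpreb1 and 1.23 for Bst2. Over all fits that left out 1 array the difference ranged from -3.89 to 1.06 for Sfrp1, -0.05 to 0.75 for Cdc45, -0.59 to 0.02 for Cxcl12, -0.08 to 0.23 for Vcam1, -1.52 to 0.39 for Ccn2, -0.09 to 1.37 for Hsd11b1, -1.45 to 0.12 for Sdf2l1, -0.02 to 0.52 for Aldoc, -0.12 to 2.12 for Esam, -1.12 to 0.54 for Vpreb1, -0.29 to 0.08 for Batf3, -1.81 to 1.23 for Bst2 and -1.91 to 0.85 for Tfrc.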
